A study of Mus musculus with 6 samples.

Results

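Transient receptor potential (TRP) channels are cation channels of the cell membrane and of internal membranes. The 9 genes described here are Trpm4, Trpm2, Trpm7, Trpm6, Trpv2, Trpv4, Trpc1, Trpc6 and Pkd2. They were chosen by symbol, all 9 were found among the 32285 genes of the feature lists, and together they held 23416 of the 183018449 unique molecular identifiers (UMIs, each standing for 1 captured RNA molecule) in the cells kept. The study profiled non-myocyte cells of the mouse heart by droplet 3′ single-cell RNA-seq, in wild-type animals (C57BL/6JRj, WT) and in animals of the strain B6.Cg-Trpm4tm1.2-PG (KO), which carries a targeted Trpm4 allele. All animals were male and 8 to 12 weeks old, and all had surgery: either a SHAM operation, with hearts taken 24 h later, or a tied-off left anterior descending (LAD) branch of the coronary arteries, which causes a myocardial infarction, with hearts taken 24 h or 72 h later. The 6 groups were therefore WT sham 24 h, KO sham 24 h, WT ligation 24 h, KO ligation 24 h, WT ligation 72 h and KO ligation 72 h. No 72 h sham group was analysed here. Each group was a single library made from the pooled live cells of 4 hearts, after ventricles had been digested with thermolysin and papain and passed through meshes that retain cardiomyocytes. With 1 library per group there is no replicate check, no test between groups was made, and every interval below covers counting error only.

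TRP channels open in response to stimuli that differ between family members, and most of them let calcium and sodium into the cell. TRPM4 is an exception: it is opened by intracellular calcium but conducts only monovalent ions, so its opening depolarises the membrane. TRPM2 is opened by ADP-ribose together with calcium, after oxidative stress. TRPM7 and TRPM6 carry a protein kinase domain on the channel and pass magnesium as well as calcium. TRPV2 and TRPV4 belong to the vanilloid group, and TRPV4 responds to cell swelling, warmth and lipid mediators. TRPC1 and TRPC6 are canonical TRP channels that work downstream of phospholipase C, and TRPC6 is opened by diacylglycerol. PKD2, or polycystin-2, is the channel partner of the large membrane protein PKD1. In the heart these channels have been studied in vascular tone, fibroblast activation and leukocyte recruitment.

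The annotation (GENCODE M21, build GRCm38, also called mm10) places all 9 as protein-coding genes. Trpm4 (ENSMUSG00000038260) lies on the minus strand at chr7:45302632-45333780 with up to 25 exons, Trpm2 (ENSMUSG00000009292) on the minus strand at chr10:77907722-77970563 with up to 34 exons, and Trpm7 (ENSMUSG00000027365) on the minus strand at chr2:126791565-126876230 with up to 39 exons. Trpm6 (ENSMUSG00000024727) lies on the plus strand at chr19:18749983-18892511. Trpv2 (ENSMUSG00000018507) lies on the plus strand at chr11:62574486-62600515 and Trpv4 (ENSMUSG00000014158) on the minus strand at chr5:114622152-114658421. Trpc1 (ENSMUSG00000032839) lies on the minus strand at chr9:95705082-95750375, Trpc6 (ENSMUSG00000031997) on the plus strand at chr9:8544142-8680741, and Pkd2 (ENSMUSG00000034462) on the plus strand at chr5:104459450-104505819. Of the 9 genes, 4 (Trpm4, Trpm7, Trpm6 and Trpc6) overlap an annotated gene on the opposite strand, and Trpm2 overlaps 2 small genes on its own strand.

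Promoter sequences, the 250 bases before the annotated start, were read from RefSeq (GRCm38.p6) for 8 of the 9 genes. Those of Trpm2, Trpv2, Trpc1 and Trpc6 are shown: these genes differ between cell classes as described below and each sequence holds a searched motif. Trpv4 also meets both points, and its sequence is not shown. Motifs were searched on both strands and are in capitals: the GC box (GGGCGG), the core of the myeloid factor PU.1 site (GAGGAA), the TATA box (TATAAA) and the CArG box that binds serum response factor, a factor of smooth muscle genes. Starts are those of RefSeq and can differ from the GENCODE gene ends given above. The Trpm2 sequence is the minus strand of chr10:77969873-77970122, which lies inside the GENCODE span of the gene. The Trpv2 sequence is the plus strand of chr11:62574236-62574485, the first of 3 annotated starts. The Trpc1 sequence is the minus strand of chr9:95750349-95750598, and the Trpc6 sequence is the plus strand of chr9:8543892-8544141.
Trpm2: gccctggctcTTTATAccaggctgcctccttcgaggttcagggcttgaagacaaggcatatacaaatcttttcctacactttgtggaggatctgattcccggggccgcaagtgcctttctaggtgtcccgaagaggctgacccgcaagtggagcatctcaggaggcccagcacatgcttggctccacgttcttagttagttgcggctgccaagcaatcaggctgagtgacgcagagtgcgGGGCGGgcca
Trpv2: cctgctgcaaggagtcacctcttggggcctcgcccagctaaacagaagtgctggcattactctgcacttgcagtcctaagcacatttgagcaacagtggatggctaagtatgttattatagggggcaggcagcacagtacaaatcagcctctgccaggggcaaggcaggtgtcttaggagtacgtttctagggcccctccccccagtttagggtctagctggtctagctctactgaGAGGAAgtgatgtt
Trpc1: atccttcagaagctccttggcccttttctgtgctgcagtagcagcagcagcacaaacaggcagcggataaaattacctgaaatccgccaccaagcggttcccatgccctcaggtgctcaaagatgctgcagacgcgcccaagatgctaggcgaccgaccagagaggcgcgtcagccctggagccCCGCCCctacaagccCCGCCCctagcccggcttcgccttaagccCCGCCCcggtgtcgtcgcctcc
Trpc6: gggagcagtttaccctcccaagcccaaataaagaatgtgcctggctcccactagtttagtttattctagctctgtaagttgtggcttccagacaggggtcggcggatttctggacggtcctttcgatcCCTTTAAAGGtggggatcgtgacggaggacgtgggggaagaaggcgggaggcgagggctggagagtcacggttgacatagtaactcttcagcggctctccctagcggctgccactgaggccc

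The Trpv2 sequence holds the PU.1 core 14 to 9 bases before the start, and the same letters lie 41 to 36 bases before its second start. The Trpc6 sequence holds a CArG box 122 to 113 bases before the start. The Trpc1 sequence holds 3 GC boxes, and the Trpm2 sequence holds 1 GC box 10 to 5 bases before the start and a TATA box 240 to 235 bases before it. The Trpv4 promoter, which was 72.0% G and C, held 2 GC boxes. None of these letters were in the windows of Trpm7, Trpm6 and Pkd2. Among all 32851 promoters of the same length, 32.7% hold a GC box, 23.3% the PU.1 core, 12.4% a TATA box and 1.47% a CArG box. A match of letters is a description and not a bound site.

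After filtering, 32030 of 34940 deposited cells were kept and fell into 37 clusters, of which 35 were named from marker genes and grouped into 13 classes, each written as X-like. The members and other TRP genes were left out of the genes used for clustering. Library totals ranged from 20995280 to 45649061 UMIs. The KO ligation 72 h library stood apart: its kept cells had a median of 1351 UMIs against 3075 to 8008 in the other 5, and 53.9% of them held fewer than 1500 UMIs against 6.06% to 10.9%. In that library single clusters made up much of several classes: cluster 8 held 1215 of its 2803 monocyte/macrophage-like cells, cluster 11 held 846 of its 879 fibroblast-like cells, cluster 10 held 422 of its 661 endothelial-like cells and cluster 26 held 361 of its 376 smooth muscle-like cells. The 10 leading genes of cluster 26 held 3 smooth muscle markers and 2 pericyte markers (Rgs5 and Ndufa4l2). Smooth muscle-like values of KO ligation 72 h therefore rest mostly on a cluster with markers of both. The libraries shared 118 cell barcodes in more than 1 library, of 34822 distinct barcodes. Levels below are in CPM: the UMIs of a gene over the UMIs of all genes, both summed over the cells of a class in a library and scaled to a total of 1000000, with an exact Poisson 95% interval. A mean ± SD is over the libraries in which the class had at least 50 cells, and genes are not ranked against each other, because gene length and capture differ between them.

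**Figure D1:**
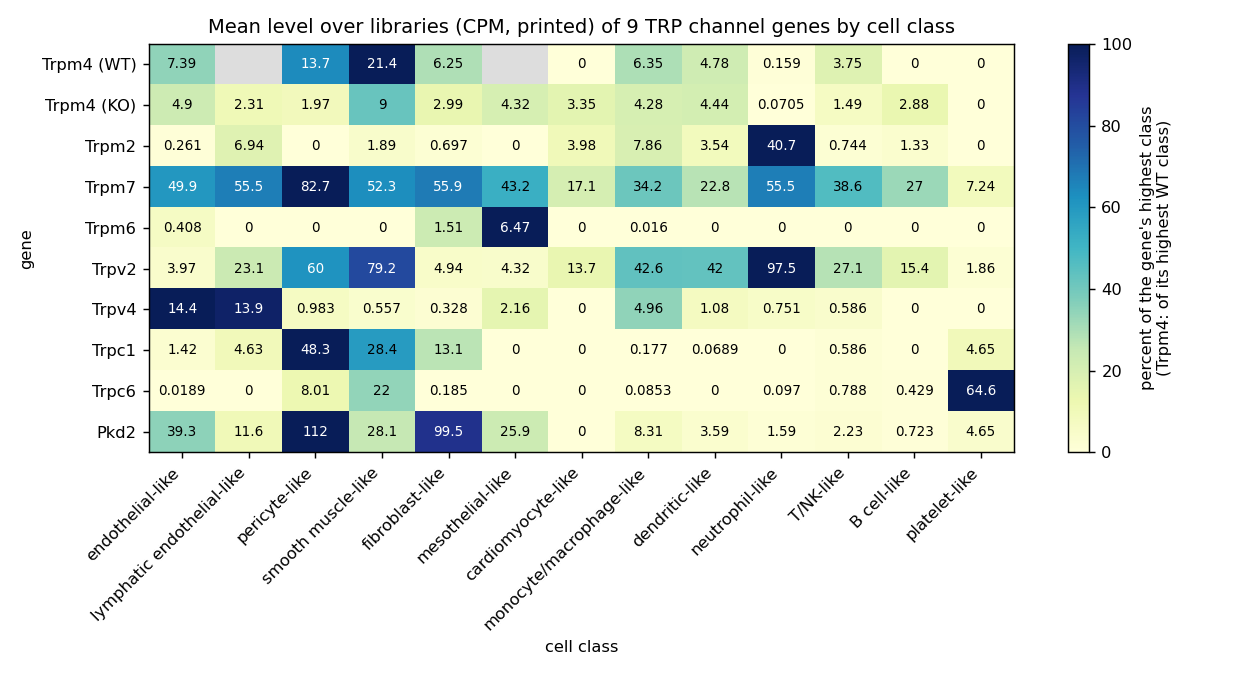
Mean level (CPM, printed in each cell) of the 9 genes in the 13 cell classes over the libraries with at least 50 cells of the class, with colour giving the percent of the gene's highest class. Trpm4 is shown apart for WT and KO libraries and grey marks classes with no such library. Trpm2 was highest in neutrophil-like cells (40.7 CPM), Trpv4 in endothelial-like cells (14.4 CPM), and Trpm7, Trpc1 and Pkd2 had their highest means in pericyte-like cells (82.7, 48.3 and 112 CPM over 4 libraries, all taken at 24 h), although the Pkd2 mean did not differ from that of fibroblast-like cells beyond their spread.

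Trpm4, the targeted gene, was read in every library first. Over all kept cells its level was 8.38 CPM (7.38 to 9.47, 255 UMIs) in WT sham and 5.81 CPM (4.99 to 6.72, 179 UMIs) in KO sham. At 24 h of ligation it was 5.48 CPM (4.54 to 6.56) in WT and 3.40 CPM (2.83 to 4.05) in KO, and at 72 h it was 4.24 CPM (3.64 to 4.90) in WT and 2.56 CPM (1.91 to 3.36) in KO. The KO library was lower than the WT library in each of the 3 conditions, and Trpm4 UMIs were still counted in all 3 KO libraries. The KO to WT ratio was 0.693 (95% interval 0.569 to 0.842) in sham, 0.619 (0.478 to 0.803) at 24 h and 0.605 (0.436 to 0.827) at 72 h. With every class weighted as in the WT library the ratios were 0.647, 0.614 and 0.542. Which exons the targeted allele removes is not given in the sources used here, and 3′ tags outside a removed stretch do not check the label.

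By class, WT Trpm4 was highest in smooth muscle-like cells (21.4 ± 13.7 CPM, n = 2 libraries), followed by pericyte-like (13.7 ± 6.38, n = 2, 7 UMIs), endothelial-like (7.39 ± 3.27, n = 3), monocyte/macrophage-like (6.35 ± 2.05, n = 3), fibroblast-like (6.25 ± 1.80, n = 3) and dendritic-like cells (4.78 ± 0.848, n = 3). Smooth muscle-like and pericyte-like levels did not differ beyond their spread, nor did the endothelial-like, monocyte/macrophage-like and fibroblast-like levels. Neutrophil-like cells held 4 Trpm4 UMIs in all, 2 in each of the 24 h ligation libraries. In the other 4 libraries 0 UMIs were counted, which allows at most 1.41, 1.95, 1.46 and 3.28 CPM in WT sham, KO sham, WT ligation 72 h and KO ligation 72 h. Cardiomyocytes are the cells in which this channel is best known, and the meshes had retained most of them: 402 cardiomyocyte-like cells held 2 Trpm4 UMIs. Both were counted in KO libraries, which held 302 of these cells. The WT libraries held only 31, 13 and 56 in sham, 24 h and 72 h of ligation, so the WT level there is not well measured.

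Trpm4 in smooth muscle-like cells stood at 31.1 CPM (21.5 to 43.4) in WT sham and 13.8 CPM (8.31 to 21.6) in KO sham, 11.8 and 5.73 CPM in WT and KO at 24 h of ligation, and 18.3 CPM (31 cells) and 7.48 CPM in WT and KO at 72 h. The KO level was below the WT level in each pair, but only the sham pair had the 100 cells in both libraries that a ratio required: 0.444 (0.239 to 0.801). That pair held 34 WT and 19 KO Trpm4 UMIs. The WT libraries with at least 50 such cells held 40 in all and the KO libraries 25, so the levels after ligation rest on few UMIs. At 72 h the 2 libraries also differed in cluster: cluster 19 held 27 of the 31 WT cells, and cluster 26 held 361 of the 376 KO cells. In endothelial-like cells the levels were 10.8 CPM in WT sham, 6.55 CPM in KO sham, 7.15 and 4.97 CPM at 24 h and 4.25 and 3.19 CPM at 72 h. The endothelial-like ratio was 0.607 (0.446 to 0.825) in sham and 0.695 (0.315 to 1.46) at 24 h. In monocyte/macrophage-like cells it was 0.834 (0.574 to 1.20) in sham, 0.566 (0.404 to 0.795) at 24 h and 0.599 (0.372 to 0.930) at 72 h. Fibroblast-like cells had a ratio of 0.573 (0.310 to 1.04) in sham and 0.308 (0.0765 to 0.919, on 4 and 20 UMIs) at 72 h. Dendritic-like cells had a ratio of 0.434 (0.147 to 1.07) at 72 h. All 9 Trpm4 ratios that could be formed were below 1, and the intervals of 4 of them reached 1. Within arterial endothelial-like cells alone (cluster 2) the sham ratio was 0.441 (0.262 to 0.730), and within capillary endothelial-like cells (cluster 0) it was 0.763 (0.493 to 1.19), a split chosen after the data were seen.

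**Figure D2:**
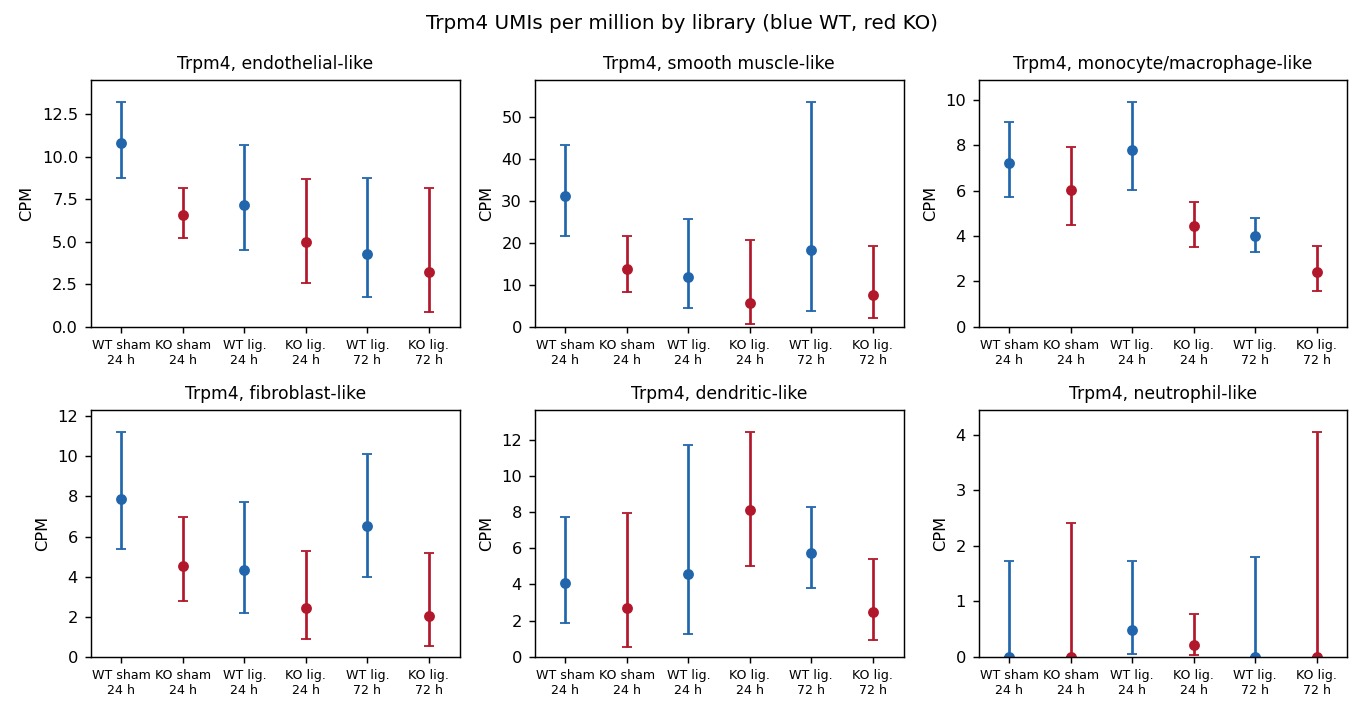
Trpm4 level (CPM, vertical axis from 0) in 6 cell classes for each library, with exact 95% Poisson intervals as bars, blue for WT and red for KO. The KO point lies below the WT point of its condition in the endothelial-like, smooth muscle-like, monocyte/macrophage-like and fibroblast-like panels, while dendritic-like cells at 24 h of ligation go the other way (4.56 CPM in WT, 8.13 CPM in KO). Neutrophil-like cells stay at or near 0.

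Trpm4 also differed between conditions within a genotype. In monocyte/macrophage-like cells it was 7.24 CPM in WT sham, 7.80 CPM in WT ligation 24 h and 4.01 CPM in WT ligation 72 h, against 6.03, 4.42 and 2.40 CPM in KO. The 72 h to 24 h ratio was 0.514 (0.377 to 0.705) in WT and 0.544 (0.332 to 0.861) in KO, and the KO ratio was 0.700 as a mean over cells. In endothelial-like cells the 24 h ligation to sham ratio was 0.663 (0.401 to 1.05) in WT and 0.759 (0.377 to 1.40) in KO, and both intervals hold 1. The WT ratio was 0.696 with a coarser clustering.

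Trpm2, the oxidant-gated channel, had its highest level in neutrophil-like cells in these libraries. Its mean level there was 40.7 ± 16 CPM (n = 6), against 7.86 ± 1.70 CPM (n = 6) in monocyte/macrophage-like cells, and the neutrophil-like level was the higher one in 6 of 6 libraries. The next classes, lymphatic endothelial-like (6.94 CPM, 1 library, 3 UMIs), cardiomyocyte-like and dendritic-like (3.54 ± 2.21 CPM), did not differ from their neighbours beyond their spread. Fibroblast-like cells held 0 or 1 Trpm2 UMI in 5 libraries and 7 in KO ligation 72 h. The share of neutrophil-like cells with a Trpm2 UMI was 5.34% to 12.1% over the 6 libraries, at median depths of 1940 to 3154 UMIs per cell. In monocyte/macrophage-like cells, at median depths of 1330 to 11988 UMIs, the share was 3.10% to 10.3%. These 2 classes were therefore apart in CPM but overlapped in the share of cells with a UMI. In endothelial-like cells, at median depths of 1182 to 3660 UMIs, the share was 0.0% to 0.151%. Thinned to 1000 UMIs per cell, which left out 12 to 60 shallower cells per library, the neutrophil-like share was 2.03% to 6.27%.

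Within neutrophil-like cells Trpm2 stood at 56.7 CPM (121 UMIs) in WT sham and 58.6 CPM (90 UMIs) in KO sham, 25.7 and 24.1 CPM in WT and KO at 24 h of ligation, and 49.3 and 29.5 CPM in WT and KO at 72 h. The 2 libraries of 24 h ligation were the lowest of their genotype, and neither overlapped its sham library. The 24 h ligation to sham ratio was 0.454 (0.347 to 0.593) in WT and 0.412 (0.321 to 0.531) in KO. Over the same interval the median gene of this class moved by -0.22 in WT and -0.19 in KO on the log2 scale, which leaves Trpm2 ratios of 0.528 and 0.470 against it. From 24 h to 72 h of ligation the ratio was 1.92 (1.45 to 2.54) in WT and 1.23 in KO. The median gene of the class moved by 0.54 and 0.52 over that time, so that measured against that gene Trpm2 stood at 1.32 in WT and 0.855 in KO, and the KO direction turns. The thinned share followed the same order: 6.27% in WT sham, 2.63% at 24 h and 4.44% at 72 h, and 5.48%, 2.03% and 2.70% in KO.

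The 24 h ligation libraries held neutrophil-like cells that sham libraries hardly held. Cluster 5 counted 566 cells in WT and 886 in KO at 24 h of ligation and 7 and 8 in sham, and its Trpm2 level was 23.1 CPM in WT and 13.2 CPM in KO. In cluster 1 alone, which all 6 libraries held, Trpm2 was 78.2 CPM in WT sham and 72.2 CPM in KO sham, 32.6 and 27.7 CPM at 24 h, and 109 and 56.0 CPM at 72 h. The cluster 1 ratio of 24 h ligation to sham was 0.416 (0.274 to 0.621) in WT and 0.383 (0.283 to 0.525) in KO, close to those of the whole class. Between genotypes the Trpm2 ratio in neutrophil-like cells was 1.03 in sham, 0.937 at 24 h and 0.599 (0.377 to 0.924, 27 against 101 UMIs) at 72 h. Marker genes of monocytes and macrophages (44 genes) summed to 6512 and 5949 CPM in neutrophil-like cells of WT and KO sham, 9268 and 10880 CPM at 24 h, and 4237 and 6059 CPM at 72 h. Of these markers 36 to 42 were detected and Cd5l was at 0 in all 6 libraries. Their part in the Trpm2 and Trpv2 values was not tested.

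Trpv2 was also highest in neutrophil-like cells (97.5 ± 45.9 CPM, n = 6). It was followed by smooth muscle-like (79.2 ± 23.6, n = 5), pericyte-like (60.0 ± 11, n = 4), monocyte/macrophage-like (42.6 ± 5.63, n = 6), dendritic-like (42.0 ± 9.14, n = 6) and T/NK-like cells (27.1 ± 5.95, n = 4). Neutrophil-like and smooth muscle-like levels overlapped, and the monocyte/macrophage-like and dendritic-like levels did not differ beyond their spread. Fibroblast-like (4.94 CPM) and endothelial-like cells (3.97 CPM) were far below. The share of endothelial-like cells with a Trpv2 UMI was 0.518% to 2.27%, against 7.26% to 37.1% of neutrophil-like cells at the depths given above. Of the deeper monocyte/macrophage-like cells 11.7% to 42.8% held one, a share that overlapped the neutrophil-like one.

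In neutrophil-like cells Trpv2 was 94.2 CPM (201 UMIs) in WT sham, 103 CPM (158 UMIs) in KO sham, 152 and 144 CPM in WT and KO at 24 h of ligation, and 50.3 and 41.6 CPM at 72 h. Both genotypes had the same order, highest at 24 h of ligation and lowest at 72 h, the reverse of Trpm2 at 24 h. The 24 h ligation to sham ratio was 1.62 (1.38 to 1.91) in WT and 1.40 (1.18 to 1.66) in KO. Measured against the median gene of the class these values were 1.88 and 1.59. From 24 h to 72 h the ratio was 0.330 (WT) and 0.289 (KO), and against the median gene 0.227 and 0.202. Thinned to 1000 UMIs, the share of cells with a Trpv2 UMI was 9.18%, 13.7% and 4.98% in WT sham, 24 h and 72 h, and 9.74%, 12.0% and 4.41% in KO. Cluster 5, present at 24 h of ligation, had the high Trpv2 levels (185 CPM in WT, 175 CPM in KO). In cluster 1 alone the 24 h ligation to sham ratio was 1.11 (0.857 to 1.45) in WT and 1.18 (0.946 to 1.49) in KO, and the 72 h to 24 h ratio was 0.635 (0.400 to 0.972) and 0.663 (0.351 to 1.14). In cluster 9 alone the 24 h ligation to sham ratio was 1.34 (0.905 to 1.97) in WT and 1.57 (1.09 to 2.29) in KO.

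**Figure D3:**
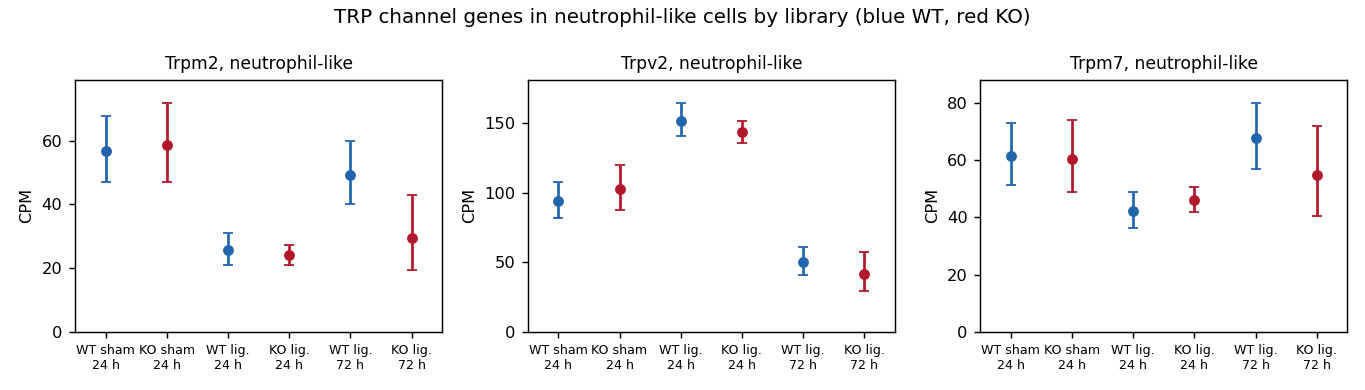
Trpm2, Trpv2 and Trpm7 levels (CPM, vertical axes from 0) in neutrophil-like cells of each library, with exact 95% Poisson intervals as bars, blue for WT and red for KO. Trpm2 is lower and Trpv2 higher at 24 h of ligation than in sham in both genotypes. Trpv2 is lowest at 72 h (50.3 CPM in WT, 41.6 CPM in KO).

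Trpv2 varied little in monocyte/macrophage-like cells: 36.2 CPM in WT sham, 44.1 CPM in KO sham, 50.8 and 46.0 CPM at 24 h, and 42.1 and 36.6 CPM at 72 h. The largest of the 4 condition ratios was 1.40 for WT ligation 24 h to sham, or 1.51 against the median gene of the class, and KO stood at 1.04 for the same comparison. Trpv2 in smooth muscle-like cells ranged from 50.5 CPM (KO ligation 72 h) to 106 CPM (KO ligation 24 h). The sham KO to WT ratio there was 1.06 (0.807 to 1.40). Dendritic-like cells had 37.9 and 36.1 CPM in WT and KO sham, 54.7 and 51.5 CPM at 24 h of ligation, and 40.6 and 31.4 CPM at 72 h, and the KO 72 h to 24 h ratio was 0.610 (0.454 to 0.814), or 0.855 as a mean over cells.

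Trpv4, which responds to mechanical and osmotic stimuli, was highest in endothelial-like cells (14.4 ± 7.14 CPM, n = 6), with lymphatic endothelial-like cells at 13.9 CPM (1 library, 6 UMIs). Monocyte/macrophage-like cells followed at 4.96 ± 1.70 CPM (n = 6), and dendritic-like (1.08 CPM), neutrophil-like (0.751 CPM) and fibroblast-like cells (0.328 CPM) were lower. Arterial endothelial-like cells had 27.9 ± 9.89 CPM (n = 4) against 9.01 ± 6.79 CPM (n = 6) in capillary endothelial-like cells. Resident macrophage-like cells had 19.4 ± 4.24 CPM (n = 4) against 4.19 ± 2.56 CPM (n = 6) in macrophages marked by Arg1 and Spp1 and 1.09 ± 0.763 CPM (n = 6) in classical monocyte-like cells. Resident macrophage-like cells held 19.9 CPM (38 UMIs) in WT sham and 25.2 CPM (48 UMIs) in KO sham, and 16.7 and 15.7 CPM at 24 h of ligation. The lowest of these 4 values was above the highest classical monocyte-like value, 2.23 CPM. At 72 h the resident macrophage-like cells numbered 43 and 44 and had 5.15 and 20 CPM in WT and KO, on 2 and 4 UMIs. Beside this, 5.03% of endothelial-like cells in WT sham held a Trpv4 UMI at a median of 3286 UMIs per cell, and 0.227% of neutrophil-like cells did at a median of 2262.

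Over the endothelial-like class Trpv4 was 14.9 CPM (131 UMIs) in WT sham, 15.3 CPM (192 UMIs) in KO sham, 17.4 and 25.2 CPM at 24 h of ligation, and 8.50 CPM (14 UMIs) and 4.78 CPM (6 UMIs) at 72 h. The 24 h ligation to sham ratio was 1.17 in WT and 1.65 (1.21 to 2.21) in KO, and the latter was 1.15 with cells of at most 10% mitochondrial UMIs. Within arterial endothelial-like cells the KO ratio was 1.86 (1.17 to 2.87), with 22.8 CPM in KO sham and 42.4 CPM in KO ligation 24 h, and the WT ratio was 0.796 (0.467 to 1.30). From 24 h to 72 h the class ratio was 0.489 in WT and 0.189 in KO. Arterial endothelial-like cells numbered 41 and 33 in the WT and KO 72 h libraries and held 8 and 3 Trpv4 UMIs, or 75.1 CPM (32.4 to 148) and 34.2 CPM (7.05 to 99.9). With a coarser clustering the WT class ratio was 1.17 in place of 0.489, and it was 0.999 as a mean over cells. In KO ligation 72 h, the class also carried marker genes of other cells: the 44 monocyte and macrophage markers summed to 12589 CPM in its endothelial-like cells against 2001 to 4911 CPM in the other 5 libraries. Of these markers 34 to 43 were detected, and Cd300e was at 0 in all 6 libraries. The 23 neutrophil markers summed to 325 and 233 CPM in endothelial-like cells of WT and KO sham, 504 and 3189 CPM at 24 h of ligation, and 208 and 4034 CPM at 72 h, with 16 to 21 detected. The part of either list in the Trpv4 values was not tested. Without the KO ligation 72 h library the mean endothelial-like level was 16.3 CPM.

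Trpm7, the widely expressed channel with a kinase domain, was detected in all 13 classes. Its mean level was highest in pericyte-like cells (82.7 ± 15.8 CPM, n = 4, all taken at 24 h, and 64.7 CPM without doublet removal), and then 55.9 ± 20.1 CPM in fibroblast-like (n = 6), 55.5 ± 9.79 CPM in neutrophil-like (n = 6), 52.3 ± 19.5 CPM in smooth muscle-like (n = 5) and 49.9 ± 10.0 CPM in endothelial-like cells (n = 6). The levels of these last 4 classes did not differ beyond their spread. Monocyte/macrophage-like (34.2 CPM), dendritic-like (22.8 CPM) and platelet-like cells (7.24 CPM) were lower. In fibroblast-like cells Trpm7 stood at 86.2 CPM (WT sham), 68.0 CPM (KO sham), 59.4 and 53.0 CPM (24 h of ligation) and 31.7 and 37.3 CPM (72 h). Sham was highest and 72 h lowest in both genotypes. From 24 h to 72 h the ratio was 0.534 in WT and 0.703 in KO. The median gene of the class moved by -0.27 and -0.14, and against it the ratios were 0.644 and 0.774. In cluster 12 alone the 24 h ligation to sham ratio was 0.899 (0.708 to 1.13) in WT and 1.20 (0.909 to 1.56) in KO. Cluster 11 held 91 of 142 WT and 846 of 879 KO fibroblast-like cells at 72 h, and 4 and 3 at 24 h of ligation.

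In neutrophil-like cells Trpm7 was 61.4 CPM in WT sham and 60.5 CPM in KO sham, 42.2 and 46.1 CPM at 24 h of ligation, and 67.9 and 54.7 CPM at 72 h. The 24 h ligation libraries were the lowest of both genotypes. From 24 h to 72 h the ratio was 1.61 (1.28 to 2.02) in WT and 1.19 (0.868 to 1.59) in KO, and against the median gene of the class it was 1.11 and 0.828, so that the KO direction turns. In cluster 1 alone the 24 h ligation to sham ratio was 1.09 (0.739 to 1.60) in WT and 0.813 (0.593 to 1.14) in KO. Its 72 h to 24 h ratio was 0.891 (0.488 to 1.54) in WT and 0.556 (0.150 to 1.44) in KO. In cluster 9 the 24 h ligation to sham ratio was 0.486 (0.245 to 0.894) in WT and 1.14 (0.740 to 1.79) in KO. The WT 72 h to 24 h ratio in cluster 14 was 2.22 (1.14 to 4.66). In endothelial-like cells Trpm7 was 62.1 and 58.5 CPM in WT and KO sham, 54.7 and 44.7 CPM at 24 h, and 36.4 and 43.1 CPM at 72 h, with a WT 72 h to 24 h ratio of 0.666 (0.489 to 0.898) over the class, 0.856 with a coarser clustering and 0.890 (0.446 to 1.65) in capillary endothelial-like cells alone. Pericyte-like cells had 84.0 and 98.3 CPM in WT and KO sham and 87.7 and 60.7 CPM at 24 h of ligation, on 15 to 25 UMIs each.

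Trpm7 in monocyte/macrophage-like cells was 37.6 CPM in WT sham, 42.0 CPM in KO sham, 39.0 CPM in WT ligation 24 h, 25.4 CPM in KO ligation 24 h, 26.8 CPM in WT ligation 72 h and 34.1 CPM in KO ligation 72 h. KO ligation 24 h and WT ligation 72 h formed the low pair, and their intervals did not overlap those of the 2 sham libraries. The KO to WT ratio was 1.12 in sham, 0.651 (0.564 to 0.752) at 24 h and 1.27 (1.12 to 1.44) at 72 h. At 24 h it was 0.631 (0.524 to 0.760) in macrophages marked by Arg1 and Spp1 (cluster 3), 0.636 (0.460 to 0.884) in classical monocyte-like cells (cluster 4) and 0.866 (0.549 to 1.39) in resident macrophage-like cells (cluster 15). The median gene of the class moved by -0.12 between the same libraries, and against it the class ratio was 0.707. Endothelial marker genes (30 genes) summed to 368 and 1282 CPM in monocyte/macrophage-like cells of WT and KO sham, 357 and 211 CPM at 24 h, and 360.0 and 821 CPM at 72 h, with 29 or 30 of them detected. Neutrophil marker genes (23 genes) summed to 1044 and 1143, 3405 and 4570, and 360.2 and 2301 CPM in the same order, with 18 to 22 detected and Stfa2 at 0 throughout. The part of either in the Trpm7 ratios was not tested.

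Trpm6, the kinase-bearing relative of Trpm7 best known for magnesium transport in kidney and gut, was scarce. The highest mean was 6.47 CPM in mesothelial-like cells of KO ligation 72 h, on 3 UMIs in 219 cells. Fibroblast-like cells had 1.51 ± 0.620 CPM (n = 6, 29 UMIs), between 0.504 CPM in KO ligation 72 h and 2.29 CPM in WT ligation 72 h, and were above endothelial-like cells (0.408 CPM, 10 UMIs) in 5 of 6 libraries. In monocyte/macrophage-like cells 1 UMI was counted among 8890 cells. No ratio between libraries could be formed for Trpm6 in any class.

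Trpc1 was a gene of mural cells and fibroblasts. Pericyte-like cells had 48.3 ± 12.5 CPM (n = 4, 48 UMIs; 33.1 CPM without doublet removal), smooth muscle-like cells 28.4 ± 12.2 CPM (n = 5, 128 UMIs) and fibroblast-like cells 13.1 ± 5.49 CPM (n = 6, 251 UMIs). With doublets removed, each of these steps was larger than the spread of the libraries. The pericyte-like level was above smooth muscle-like in 3 of the 4 libraries with both, all taken at 24 h, and smooth muscle-like above fibroblast-like in 5 of 5. The pericyte-like step was not measured against the spread without doublet removal. Endothelial-like cells had 1.42 ± 0.350 CPM, and neutrophil-like cells held 0 Trpc1 UMIs in all 6 libraries, which allows at most 0.317 CPM in KO ligation 24 h, the library with the most of them. In pericyte-like cells the values were 40.2 CPM in WT sham, 66.8 CPM in KO sham, 41.6 CPM in WT ligation 24 h and 44.5 CPM in KO ligation 24 h, and all 4 intervals overlapped. In fibroblast-like cells they were 20.3 CPM (WT sham), 13.6 CPM (KO sham), 16.9 and 14.2 CPM (24 h of ligation) and 5.56 and 8.06 CPM (72 h). The 72 h libraries were the lowest, with 72 h to 24 h ratios of 0.329 (WT) and 0.569 (KO), and of 0.397 and 0.626 against the median gene. The KO ratio was 0.682 with cells of at least 1500 UMIs and 0.290 as a mean over cells. The sham KO to WT ratio was 0.666 (0.469 to 0.943) and was 0.854 in cluster 12 alone.

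Trpc6, opened by diacylglycerol, was counted mainly in platelet-like and smooth muscle-like cells. Platelet-like cells had 64.6 ± 19.6 CPM (n = 4, 19 UMIs), or 38.0 CPM without doublet removal. The values were 37.2 CPM in WT sham, 82.2 CPM in KO sham, 74.4 CPM in WT ligation 24 h and 64.5 CPM in WT ligation 72 h. The other 2 libraries held 48 and 16 platelet-like cells and 0 Trpc6 UMIs. Platelets hold little RNA (medians of 596 to 698.5 UMIs per cell), so the level rests on few molecules. In smooth muscle-like cells Trpc6 was 21.0 CPM (23 UMIs) in WT sham, 19.6 CPM (27 UMIs) in KO sham, 21.6 and 45.8 CPM at 24 h of ligation, and 24.4 CPM (31 cells, 4 UMIs) and 1.87 CPM (1 UMI) at 72 h. The KO ligation 72 h library was the low one. Its cluster 26 held 0 Trpc6 UMIs in 361 cells, while cluster 19, which held most smooth muscle-like cells of the other libraries, had 10.3 CPM in the 15 cells of this library and 19.9 to 48.1 CPM in the others. Cluster 26 rested on 3 of the 12 smooth muscle markers, and cluster 19 on 11. The pericyte markers Rgs5 and Ndufa4l2 were also among the 10 leading genes of cluster 26. In KO ligation 72 h the 44 monocyte and macrophage markers summed to 25508 CPM in smooth muscle-like cells against 595 to 6442 CPM in the other 4 with at least 50 cells. Of the 44 markers 26 to 42 were detected there, Timd4 and Cd300e were at 0 in all 5 libraries, and their part in the Trpc6 value was not tested. Pericyte-like cells had 8.01 ± 5.64 CPM on 8 UMIs. Endothelial-like cells held 1 Trpc6 UMI in 7857 cells.

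Pkd2 had its highest means in pericyte-like (112 ± 18.1 CPM, n = 4, all taken at 24 h) and fibroblast-like cells (99.5 ± 48.0 CPM, n = 6), which did not differ beyond their spread. Pericyte-like cells were the higher of these in 1 of 4 libraries, and their mean was 82.2 CPM without doublet removal. Endothelial-like cells had 39.3 ± 12.0 CPM, smooth muscle-like cells 28.1 ± 9.41 CPM and monocyte/macrophage-like cells 8.31 ± 2.51 CPM. Neutrophil-like cells were at 0.423 to 3.25 CPM. The pericyte-like values were 124 and 122 CPM in WT and KO sham and 115 and 85.0 CPM at 24 h of ligation. Pkd1, which codes for its partner, was highest in the same 2 classes, with 65.4 ± 30.8 CPM in fibroblast-like and 61.7 ± 9.24 CPM in pericyte-like cells.

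Fibroblast-like Pkd2 was 139 CPM (545 UMIs) in WT sham, 146 CPM (646 UMIs) in KO sham, 143 CPM (363 UMIs) in WT ligation 24 h, 72.5 CPM (179 UMIs) in KO ligation 24 h, 52.7 CPM (161 UMIs) in WT ligation 72 h and 44.3 CPM (88 UMIs) in KO ligation 72 h. Both sham libraries and WT ligation 24 h were high, and the other 3 were low with no overlap of intervals between these sets. The 24 h ligation to sham ratio was 1.03 in WT and 0.497 (0.418 to 0.587) in KO, and the KO to WT ratio at 24 h was 0.508 (0.422 to 0.609). The 72 h to 24 h ratio was 0.369 (0.305 to 0.445) in WT and 0.611 in KO. The share of fibroblast-like cells with a Pkd2 UMI was 69.5%, 63.3%, 69.2%, 51.9%, 51.4% and 7.39% in the order of the values above. Median depths were 8877 to 10801 UMIs except for 1052 in KO ligation 72 h, and neutrophil-like cells had shares of 0.118% to 0.747%. Thinned to 1000 UMIs, which left out 399 cells of KO ligation 72 h and 0 to 7 cells elsewhere, the shares were 14.3%, 12.5%, 10.9%, 8.11%, 5.93% and 3.75%.

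The fibroblast-like clusters differed between these libraries. Cluster 12 held 298, 305, 108 and 97 cells of the 4 libraries taken at 24 h, and in it the KO to WT ratio of Pkd2 was 1.01 (0.883 to 1.17) in sham and 0.692 (0.539 to 0.884) at 24 h of ligation. Its 24 h ligation to sham ratio was 1.13 (0.949 to 1.35) in WT and 0.772 (0.615 to 0.962) in KO. Cluster 31 held 58 and 76 cells of WT and KO ligation 24 h, and its ratio was 0.490 (0.357 to 0.669). At 72 h most fibroblast-like cells were in cluster 11, marked by Cthrc1 and Tnc, where Pkd2 was 35.2 CPM in WT and 36.4 CPM in KO. Pkd1 in fibroblast-like cells passed 1.5-fold in the same 3 condition comparisons as Pkd2: its ratio was 0.581 (0.476 to 0.705) for KO ligation 24 h to sham, and 0.399 and 0.573 for 72 h to 24 h in WT and KO. Endothelial markers summed to 788 and 1391 CPM in fibroblast-like cells of WT and KO sham, 686 and 491 CPM at 24 h, and 239.8 and 483 CPM at 72 h. Markers of monocytes and macrophages summed to 3296 to 5989 CPM in 5 libraries and 10611 CPM in KO ligation 72 h, with 32 to 42 detected and Timd4 and Cd300e at 0 throughout. The 12 smooth muscle markers summed to 220.5 and 302 CPM in WT and KO sham, 94 and 202 CPM at 24 h of ligation, and 3555 and 2180 CPM at 72 h, with 8 to 12 detected. The part of any of these lists in the fibroblast-like Pkd2, Trpm7 and Trpc1 values was not tested.

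In monocyte/macrophage-like cells Pkd2 was lower and had the same low library at 24 h: 9.53 CPM in WT sham, 11.9 CPM in KO sham, 9.78 CPM in WT ligation 24 h, 5.41 CPM in KO ligation 24 h, and 6.10 and 7.11 CPM at 72 h. The KO to WT ratio at 24 h was 0.553 (0.409 to 0.749), and 0.497 (0.338 to 0.730) in macrophages marked by Arg1 and Spp1. In endothelial-like cells Pkd2 went from 55.4 CPM in WT sham to 45.4 CPM at 24 h and 22.5 CPM at 72 h, and in KO from 46.9 to 33.9 and 31.9 CPM. The WT 72 h to 24 h ratio was 0.495 over the class, 0.743 with a coarser clustering, 0.883 as a mean over cells and 1.11 (0.550 to 2.10) in capillary endothelial-like cells alone.

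**Figure D4:**
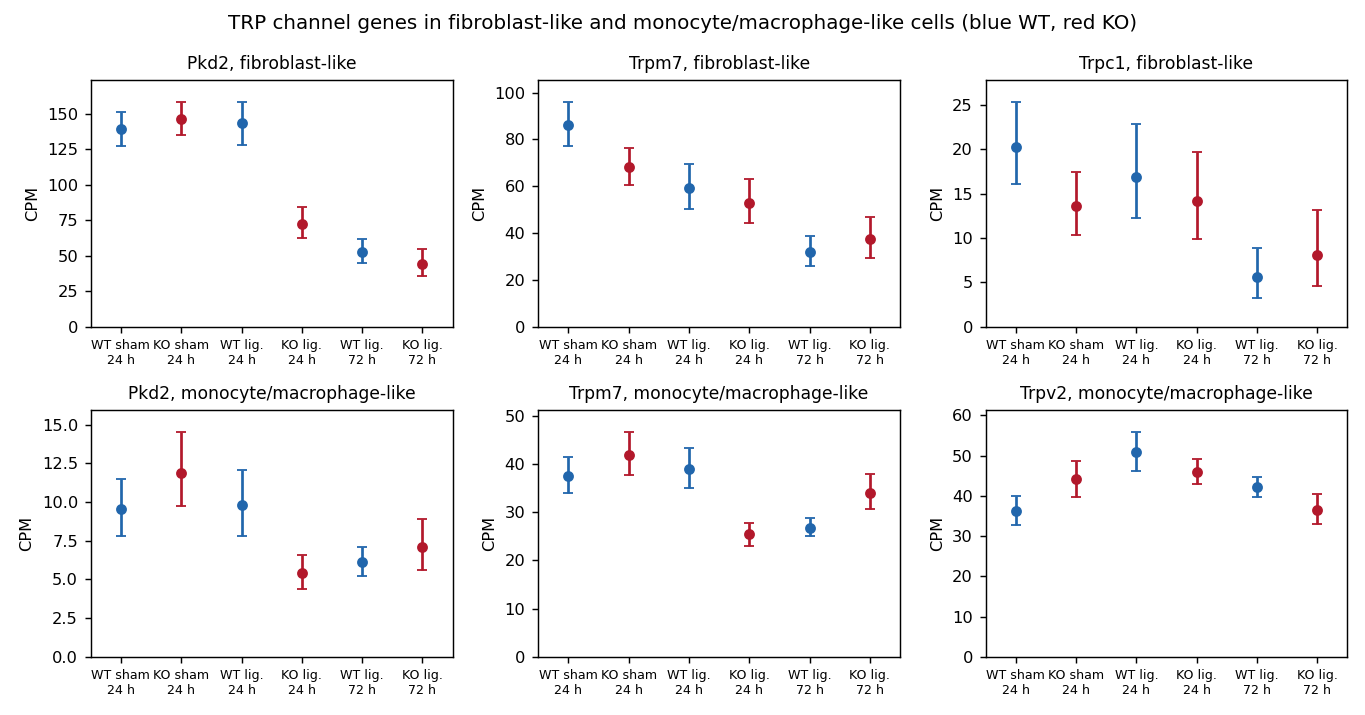
Pkd2, Trpm7 and Trpc1 in fibroblast-like cells (upper row) and Pkd2, Trpm7 and Trpv2 in monocyte/macrophage-like cells (lower row), in CPM with vertical axes from 0 and exact 95% Poisson intervals as bars, blue for WT and red for KO. Fibroblast-like Pkd2 is 72.5 CPM in KO ligation 24 h against 143 CPM in WT ligation 24 h. All 3 fibroblast-like genes are lowest in the 72 h libraries.

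Read over the 4 large classes (endothelial-like, fibroblast-like, monocyte/macrophage-like and neutrophil-like), the comparisons were counted for pairs of a gene and a class with at least 50 UMIs over both libraries, and a pair was called where the ratio was at least 1.5-fold in either direction. Between KO and WT sham hearts 3 of 17 member pairs were called, all lower in KO, against 7.47% of all 35738 gene and class pairs. They were Trpm4 in endothelial-like and fibroblast-like cells and Trpc1 in fibroblast-like cells. At 24 h of ligation 4 of 15 were called, all lower in KO, against 12.8% of all pairs: Trpm4, Trpm7 and Pkd2 in monocyte/macrophage-like cells and Pkd2 in fibroblast-like cells. At 72 h 2 of 14 were called, both lower in KO, against 13.4%: Trpm4 in monocyte/macrophage-like and Trpm2 in neutrophil-like cells. The share of called members (17.6%, 26.7% and 14.3%) was above the share of all genes in sham and at 24 h and near it at 72 h. Trpm4, the targeted gene, supplied 4 of these 9 calls. In sham it supplied 2 of the 3, so the excess of members over all genes there rests on the targeted gene. Against the median gene of each class the counts were 2, 4 and 3, and not all were lower: Trpv4 (1.51 at 24 h) and Pkd2 (1.5 at 72 h) in endothelial-like cells were called higher, while Trpc1 in fibroblast-like and Trpm7 in monocyte/macrophage-like cells (0.707) were not called. The Trpc1 call was also lost at both other clustering resolutions (0.676) and without doublet removal (0.723), and as a mean over cells the Trpm4 ratio at 72 h was 0.702.

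**Figure D5:**
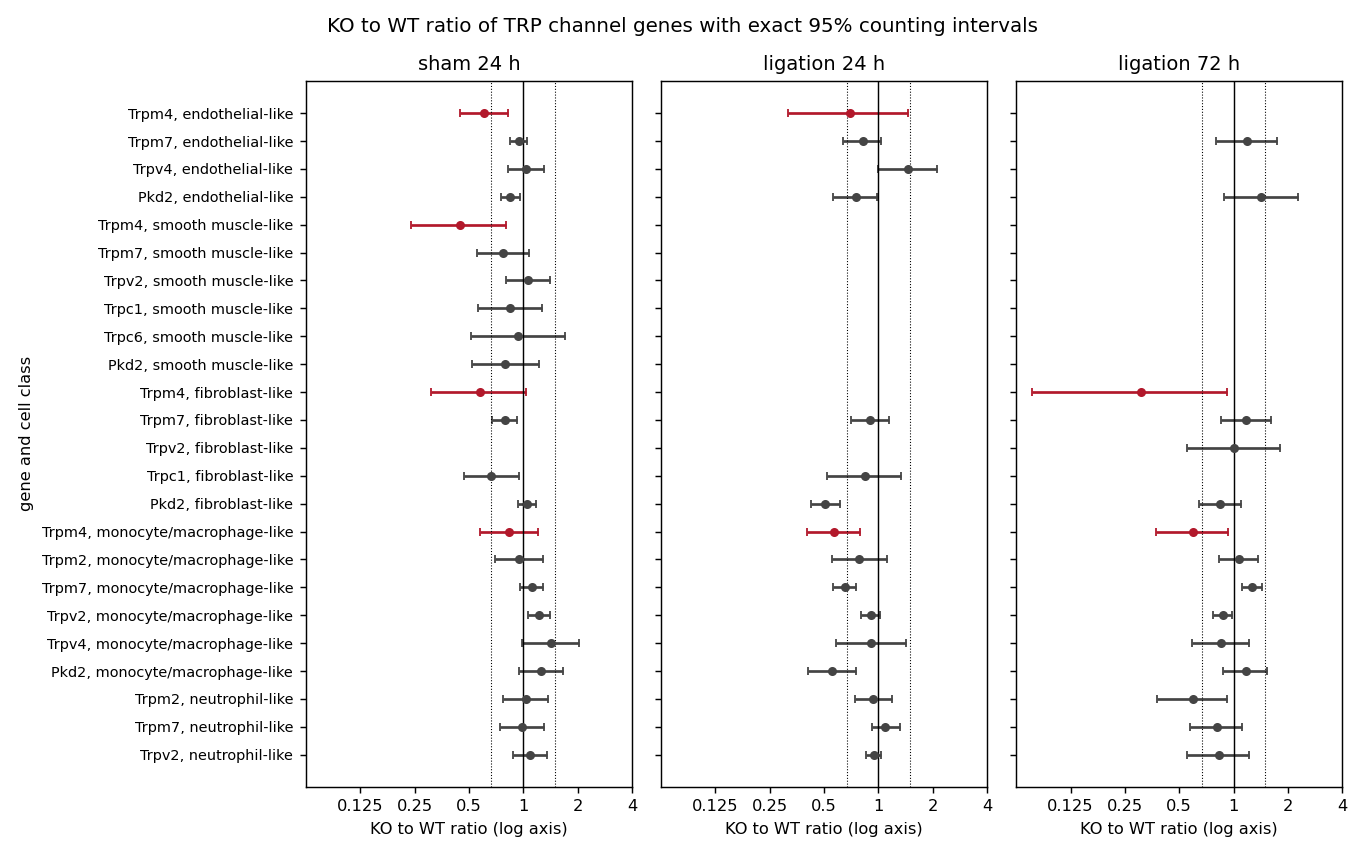
KO to WT ratio of the TRP genes in each class with enough cells and UMIs (horizontal log axis), for sham, 24 h and 72 h of ligation, with exact 95% counting intervals as bars, Trpm4 in red. The solid line marks equal levels and the dotted lines mark 1.5-fold. Every Trpm4 point lies left of the solid line, and Pkd2 in fibroblast-like cells at 24 h lies at 0.508.

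Between conditions of 1 genotype, 24 h of ligation against sham called 3 of 16 member pairs in WT (1 higher, 2 lower; 23.7% of all pairs) and 7 of 16 in KO (1 higher, 6 lower; 26.3%). Those in WT were Trpm2 and Trpv2 in neutrophil-like cells and Trpm4 in endothelial-like cells. Those in KO were Trpm2 in neutrophil-like cells, Pkd2 in fibroblast-like cells, Trpv4 in endothelial-like cells, and 4 lower genes in monocyte/macrophage-like cells: Trpm2 (0.565), Trpm7 (0.605), Trpv4 (0.433) and Pkd2 (0.453). The WT ratios of the same 4 genes were 0.691, 1.04, 0.677 and 1.03. The median gene of that class moved by -0.28 in KO and -0.11 in WT, and against it 2 of the 4, Trpv4 (0.525) and Pkd2 (0.550), stayed past 1.5-fold. Resident macrophage-like cells (cluster 15) were 224 of 807 cells of the class in KO sham and 110 of 1453 in KO ligation 24 h. Within them the KO Trpv4 ratio was 0.626 (0.360 to 1.06), and the part of this change of cells was not tested. Within macrophages marked by Arg1 and Spp1 the KO Pkd2 ratio was 0.472 (0.315 to 0.709). Ligation at 72 h against 24 h called 11 of 15 pairs in WT (2 higher, 9 lower; 43.2% of all pairs) and 6 of 15 in KO (1 higher, 5 lower; 35.3%). The pairs lower in both genotypes were Trpc1 and Pkd2 in fibroblast-like cells, Trpm4 in monocyte/macrophage-like cells, Trpv2 in neutrophil-like cells and Trpv4 in endothelial-like cells. The lower WT Trpv4 level was not seen with a coarser clustering or as a mean over cells, as given above. Trpm2 in monocyte/macrophage-like cells was 1.74-fold higher at 72 h in KO, with 5.08 CPM at 24 h and 8.84 CPM at 72 h, against 1.27 in WT. Against the median gene of each class 8 pairs were called in WT, all lower and with this WT Trpv4 pair among them, and 5 in KO. Those lost in WT were Trpm2 (1.32) and Trpm7 (1.11) in neutrophil-like cells and Trpm7 in endothelial-like cells, and fibroblast-like Pkd2 in KO (0.674) was lost. These comparisons share libraries and are given side by side only.

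Among 18 other TRP family genes in the feature lists, 5 had at least 50 UMIs over the 6 libraries, 13 had fewer and 4 of these had none. Trpm3 was highest in endothelial-like cells (13 ± 3.94 CPM, n = 6) and was above fibroblast-like cells in 6 of 6 libraries. Mcoln2, a lysosomal TRP channel, was highest in B cell-like cells (13 ± 6.20 CPM, n = 4), and in monocyte/macrophage-like cells it was 1.05 CPM in WT ligation 24 h and 6.21 CPM in WT ligation 72 h, a ratio of 5.92 (3.05 to 13.2), and 2.21 CPM in KO ligation 72 h. Over the 4 large classes 1, 0 and 0 measured pairs of this list were higher and 0, 0 and 1 lower in KO than WT (5, 4 and 2 pairs in sham, 24 h and 72 h). The shares of all gene and class pairs called were 7.47%, 12.8% and 13.4%, and the list has too few pairs to be set against them.

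Mcoln1, the lysosomal mucolipin channel gene, was the 1 listed TRP gene past 1.5-fold between genotypes in sham hearts. In fibroblast-like cells it was 6.10 CPM in WT sham and 10.6 CPM in KO sham, a ratio of 1.74 (1.04 to 2.97), then 14.6 CPM in WT and 4.05 CPM in KO at 24 h of ligation. The ligation to sham ratio was 2.38 (1.39 to 4.17) in WT and 0.381 (0.172 to 0.765) in KO.

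Of 26 listed partners, regulators and downstream genes of TRP channels, 25 had at least 50 UMIs. In KO against WT, 7 of 80 measured pairs were higher and 1 lower in sham (median log2 ratio -0.03), 0 were higher and 10 of 77 lower at 24 h (-0.08), and 7 of 72 were higher and 0 lower at 72 h (0.07). The called share of the list was 10%, 13% and 9.72%, near the 7.47%, 12.8% and 13.4% of all pairs. In sham, Cav1, a caveolar protein gene, and Aqp1, a water channel gene, both also on the endothelial marker list, supplied 4 of the 7. In monocyte/macrophage-like cells Cav1 was 12.2 CPM in WT sham and 51.0 CPM in KO sham and Aqp1 was 6.23 and 20.8 CPM, alongside the endothelial marker sums given above. The other 3 were Piezo2, a mechanically gated channel gene, and Nfatc1, a calcineurin target, in fibroblast-like cells (ratios 2.66 and 1.54) and Cnnm2, linked to magnesium transport, in monocyte/macrophage-like cells (2.13). The lower gene was Magt1 in neutrophil-like cells (0.547).

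At 24 h of ligation the 10 lower pairs included 3 in monocyte/macrophage-like cells beside Cav1. Ppp3ca, a calcineurin catalytic subunit gene, was 79.4 CPM in WT and 50.1 CPM in KO (0.631, 0.571 to 0.698), Nfatc2 had a ratio of 0.623 and Rcan1, a calcineurin regulator, one of 0.617. The others were Nfatc3 in fibroblast-like cells (0.645), Ppp3cb (0.640), Rcan1 (0.587) and Magt1 (0.648) in neutrophil-like cells, and Cav1 in 3 classes (0.477 to 0.625). The 7 higher pairs at 72 h were Cav1 and Aqp1 in fibroblast-like (2.04 and 1.5) and monocyte/macrophage-like cells (2.95 and 3.18), and Rcan1 (1.84), Magt1 (1.67) and Parg (1.54) in neutrophil-like cells.

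For 24 h of ligation against sham the partner list had 3 higher and 14 lower of 79 in WT (median -0.18) and 1 higher and 23 lower of 81 in KO (-0.27), or 21.5% and 29.6% called, near the 23.7% and 26.3% of all pairs. In fibroblast-like cells the genes lower in both genotypes included Ppp3ca (0.660 in WT, 0.476 in KO), Nfatc4 (0.545 and 0.414) and Camk2d, a calcium/calmodulin-dependent kinase gene (0.566 and 0.520). For 72 h against 24 h the list had 17 higher and 13 lower of 79 in WT (-0.09) and 21 higher and 7 lower of 74 in KO (0.10), or 38% and 37.8% called, near the 43.2% and 35.3% of all pairs. Parp1, whose enzyme makes poly(ADP-ribose), a source of the TRPM2 ligand, was 29.7 CPM in WT ligation 24 h and 77.2 CPM in WT ligation 72 h in monocyte/macrophage-like cells, a ratio of 2.60 (2.28 to 2.97), and the KO ratio was 1.91 (1.71 to 2.14).

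Across 57 points, each a class in a library, the genes whose levels ran most like each member were found by Pearson correlation of log2(CPM + 1). These points share libraries and depth, so the values are a description. The closest to Trpc1 were Gpc6 (r = 0.97), Nfatc4 (0.93) and Heyl (0.93), and the closest to Pkd2 included Phldb1 (0.94) and Creb3l2 (0.92). Trpm2 ran closest to A530064D06Rik (0.92), Cd300lb (0.92) and Mefv (0.89), and Trpm7 to Tmf1 (0.92), Pbrm1 (0.91) and Phf3 (0.91). Trpc6 ran closest to Mrvi1 (0.87), Myl9 (0.86) and Pde5a (0.85). Trpm4 (Mfhas1, 0.79), Trpv2 (Arid5a, 0.80) and Trpv4 (2610203C22Rik, 0.80) had weaker closest genes, and the sparse counts of Trpm6 made its closest genes uninformative. Among the members themselves the highest correlation was between Trpc1 and Pkd2 (0.78).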

How the data were processed

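The deposited files hold raw UMI counts per gene and cell, which the authors made with Cell Ranger 6.0.0 on mm10, per the submitters' processing notes and the file headers; aligner settings and any later cell filter are not given in the sources used here. Strand use in counting is not stated either, so reads of a gene and of an overlapping opposite-strand gene could not be told apart. Cells with at least 200 genes and at most 20% mitochondrial UMIs were kept. Doublets were scored against simulated cell pairs, and the highest-scoring cells of each library were removed at a rate of 0.8% per 1000 cells (105 to 425 cells), because the automatic threshold marked 0 to 50.

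Counts were scaled to 10000 and log-transformed, and 2000 variable genes without any TRP gene, 30 principal components and 20 neighbours gave Leiden clusters at resolution 1 (scanpy 1.11.5, igraph 0.11.9, scikit-learn 1.9.0). A cluster was named when at least 3 listed markers were detected in 25% of its cells at 2-fold or more over the rest, and its 10 leading genes did not go against the name. Ratios between libraries needed 100 cells in both libraries and 50 UMIs in total, or 20 for Trpm4, and carry exact conditional intervals (SciPy 1.17.1). Levels used classes of at least 50 cells. A count of 0 entered means as 0, and the upper limit printed beside one is the level that 3 counts would have. Only the ratio and its interval were tested on simulated data, with Poisson counts of known fold. No variation between cells or libraries was simulated, and clustering and class naming were not tested in this way.

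The 9 genes and all gene lists were chosen with earlier results of these data known. The genes named from the rest are the 3 most correlated with each member over classes and libraries, and listed genes past 1.5-fold in a comparison described or highest of their list. Some genes that this rule names are not reported here. Alternatives covered the clustering resolution, doublets, mitochondrial and UMI limits, the fold and count limits, the weighting of cells, and each library in turn; the limit of 1500 UMIs for member counts, ratios within 1 cluster and ratios against the median gene were added after seeing the data. No test between groups was made, since each group is 1 library. Figures used matplotlib 3.10.9.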

Additional observations from a re-analysis of the deposited data

Results flagged for a closer look

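Trpm7 in monocyte/macrophage-like cells had KO to WT ratios on opposite sides of 1 at the 2 times after ligation, with intervals that did not reach 1: 0.651 (0.564 to 0.752) at 24 h and 1.27 (1.12 to 1.44) at 72 h. The same 4 libraries gave opposite directions over time, with a 72 h to 24 h ratio of 1.34 (1.17 to 1.55) in KO and 0.688 (0.604 to 0.785) in WT. Within macrophages marked by Arg1 and Spp1 (cluster 3) the Trpm7 KO to WT ratio was 0.631 (0.524 to 0.760) at 24 h and 1.27 (0.792 to 1.99) at 72 h, and within classical monocyte-like cells (cluster 4) it was 0.636 (0.460 to 0.884) and 0.957 (0.675 to 1.35). At 72 h it was also 1.90 (1.28 to 2.74) in cluster 13, 1.27 (1.03 to 1.56) in cluster 6, 1.06 (0.720 to 1.52) in cluster 20 and 0.998 (0.464 to 2.46) in cluster 8. The KO ligation 72 h library was the shallow one, and 1215 of its 2803 cells of this class were in cluster 8.

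Trpv2 in the same class had a KO to WT ratio of 1.22 (1.06 to 1.41) in sham and 0.869 (0.773 to 0.976) at 72 h of ligation. The differences between these ratios were not tested, and each rests on 1 library per group.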

How the results depend on the processing

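No paired analysis was possible because the labels carry no replicate numbers and each group is 1 library. Of 126 member ratios, 124 at Leiden resolution 0.5, 126 at resolution 2, 126 without doublet removal, all but 1 at 10% mitochondrial UMIs, all but 1 at 1500 UMIs and 113 as a mean over cells stayed within the counting interval of the value reported. Among those that did not stay, Trpv4 in endothelial-like cells (WT, 72 h to 24 h) turned from 0.489 to 1.17 at resolution 0.5, and the cause was not tested. Without doublet removal the highest-class levels were 64.7 CPM for Trpm7, 33.1 CPM for Trpc1 and 82.2 CPM for Pkd2 in pericyte-like cells, 38.0 CPM for Trpc6 in platelet-like cells and 8.01 CPM for Trpm6 in mesothelial-like cells. Trpm6 was 3.08 CPM there with cells of at least 1500 UMIs and 7.90 CPM as a mean over cells. Leaving out 1 library at a time gave 37.1 to 44.0 CPM for Trpm2, 86.5 to 109 CPM for Trpv2, 12.2 to 16.3 CPM for Trpv4, 77.5 to 90.0 CPM for Trpm7, 42.1 to 51.0 CPM for Trpc1, 58.7 to 73.7 CPM for Trpc6 and 107 to 120.5 CPM for Pkd2.

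With 2-fold in place of 1.5-fold, fewer member pairs were past the limit. For KO to WT they were 0 of 17 in sham, 0 of 15 at 24 h and 0 of 14 at 72 h. For 24 h of ligation to sham they were 1 of 16 in WT and 4 of 16 in KO. For 72 h to 24 h they were 5 of 15 in WT and 2 of 15 in KO. With 20 UMIs in place of 50 they were 4 for KO to WT at 72 h and 5 for WT 24 h of ligation to sham, since more pairs entered. The share of all gene and class pairs at these other limits is not given here, so these counts say nothing about the members against all genes. Values of Trpm6 and Trpc6 rest on few UMIs per class, which limits their precision.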
